A study of Mus musculus with 11 samples.

Results

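The transcripts described here are those of the *Dlk1*-*Dio3* imprinted cluster on mouse chromosome 12. They comprise 3 long noncoding RNAs (*Meg3*, *Rian* and *Mirg*) and 3 protein-coding genes (*Dlk1*, *Rtl1* and *Dio3*), which are 6 of the 55401 genes counted. The genes were selected by symbol, and the cluster was chosen because its noncoding RNAs were much higher in both beta cell libraries of one animal, mouse 4. The levels of *Meg3*, *Rian* and *Mirg* in that animal are therefore a description and carry no test. Of the 6 genes, 5 passed the filter on low counts, *Dio3* through the non-beta libraries alone, and *Rtl1* did not. Poly(A) RNA-seq was performed on 11 libraries of cells sorted by FACS from islets of male C57BL6/J mice on chow. All animals, 10 weeks old by the labels, carried RIP-Cre, in which the rat insulin promoter (RIP) drives Cre, together with STOP-tdTomato and Nnat-EGFP. In these animals tdTomato marks cells in which Cre has been active, and eGFP reports the *Nnat* promoter from a paternally inherited BAC transgene. By the labels the beta cells were NNAT-positive in 4 libraries and NNAT-negative in 4 others, and 3 libraries held non-beta cells. Libraries with the same number came from one mouse, and mouse 4 had no non-beta library.

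The cluster is one of the best studied imprinted domains of the mouse. *Meg3*, *Rian* and *Mirg* are transcribed from the maternal chromosome in the same direction, and *Rian* and *Mirg* host arrays of small nucleolar RNAs and microRNAs, respectively. *Dlk1*, *Rtl1* and *Dio3* are expressed mainly from the paternal chromosome. *Dlk1* encodes a transmembrane relative of the Notch ligands, *Rtl1* a protein derived from a retrotransposon and *Dio3* the deiodinase that inactivates thyroid hormone. In human islets, MEG3 and the microRNAs of the cluster are known as abundant beta cell transcripts.

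The sequences before the annotated starts of 3 of the genes are shown because *Meg3* stood apart in mouse 4 while *Dlk1* and *Dio3* had their highest levels in non-beta cells. Each is the 250 bases before the start in RefSeq (GRCm38.p6, plus strand, 5′ to 3′). *Meg3* lies at chr12:109540746-109540995, *Dlk1* at chr12:109452573-109452822 and *Dio3* at chr12:110278980-110279229. Capitals mark matches, on either strand, to TGACGTCA (a cAMP response element), GGGCGG (the Sp1 type GC box), CCAAT (bound by NF-Y), the TATA box form TATAAA, and the core bound by ZFP57, which is TGCCGC.
Meg3: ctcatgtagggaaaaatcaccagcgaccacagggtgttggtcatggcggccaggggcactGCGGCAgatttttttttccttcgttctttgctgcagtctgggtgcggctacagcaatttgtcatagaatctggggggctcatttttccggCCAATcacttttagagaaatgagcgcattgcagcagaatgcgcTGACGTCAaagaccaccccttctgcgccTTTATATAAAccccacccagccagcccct
Dlk1: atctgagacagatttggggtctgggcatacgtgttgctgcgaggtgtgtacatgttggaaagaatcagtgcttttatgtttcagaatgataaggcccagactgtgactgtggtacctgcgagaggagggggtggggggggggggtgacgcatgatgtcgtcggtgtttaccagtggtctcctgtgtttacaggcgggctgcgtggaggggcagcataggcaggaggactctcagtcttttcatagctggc
Dio3: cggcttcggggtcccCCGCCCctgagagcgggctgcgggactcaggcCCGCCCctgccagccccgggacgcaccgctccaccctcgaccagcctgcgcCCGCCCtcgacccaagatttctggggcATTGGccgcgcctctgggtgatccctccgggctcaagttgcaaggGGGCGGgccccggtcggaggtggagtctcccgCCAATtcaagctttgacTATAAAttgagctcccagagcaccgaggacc
The *Meg3* window held 1 TGACGTCA, 1 CCAAT, 1 TGCCGC and 2 overlapping matches to TATAAA. The *Dio3* window held 4 GGGCGG, 2 CCAAT and 1 TATAAA, and the *Dlk1* window held none of the 5 motifs. Among 32851 RefSeq windows of the same length, 1.55% held TGACGTCA, 32.7% GGGCGG, 33.8% CCAAT, 12.4% TATAAA and 8.68% TGCCGC. The *Dio3* window had 21 CpG dinucleotides, against 10 for *Meg3*, 8 for *Dlk1* and a median of 6 over all windows. A second RefSeq start of *Meg3*, with its window at chr12:109545148-109545397, had 0 CpG and none of the motifs.

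Library depth and identity bear on what follows. Total counts were between 30420352 and 43238376 per library, and levels are given as CPM, the count scaled to a common normalised library size. A floor of 3 counts corresponded to at most 0.102 CPM, and this limit covers counting error only. Transcript levels of *Nnat*, the gene behind the sort, went against the labels. Under the NNAT-positive label, mice 1 to 4 had 50.5, 46.4, 46.0 and 101 CPM, and under the NNAT-negative label 74.8, 80.8, 66.5 and 153 CPM. *Nnat* was thus lower under the positive label in all 4 mice (log2 fold change -0.62, adjusted *p* = 0.444 by edgeR), and every direction between the beta fractions below follows the labels only. Both mouse 4 libraries had the highest *Nnat* of their fraction. Summed markers of beta cells (10 of 10 measured) were 184094 and 182953 CPM in mouse 4, below the range of 283293 to 428502 CPM in the 6 other beta libraries. Insulin genes dominated that sum, with 18.0% and 17.8% of counts in mouse 4 and 24.0% to 34.4% in the other beta libraries. The sum without them was not computed.

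*Meg3*, *Rian* and *Mirg* were present in all 11 libraries, and in each the 2 beta libraries of mouse 4 lay above every other library. *Meg3* was at 40.4, 20.6 and 32.9 CPM in the labelled NNAT-positive cells of mice 1, 2 and 3, and at 1208 CPM in those of mouse 4. In labelled NNAT-negative cells it was at 25.9, 18.6 and 32.4 CPM in mice 1 to 3 and at 1053 CPM in mouse 4. The non-beta cells of mice 1 to 3 had 17.3, 38.7 and 23.4 CPM. The level in mouse 4 was 36.7 times the median of the other mice in the labelled NNAT-positive fraction and 40.7 times in the labelled NNAT-negative fraction. Outside mouse 4 the 3 fractions overlapped.

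*Rian*, the host of the snoRNA array, was the most even of the cluster outside mouse 4. It was at 114, 111 and 122 CPM in the labelled NNAT-positive cells of mice 1 to 3 and at 695 CPM in mouse 4. In labelled NNAT-negative cells the values were 119, 81.4 and 125 CPM in mice 1 to 3 and 669 CPM in mouse 4, and in non-beta cells they were 86.5, 125 and 103 CPM. The mouse 4 level was 6.11 and 5.60 times the median of the other mice in the labelled NNAT-positive and NNAT-negative fractions. *Rian* therefore rose above the other animals by a smaller factor than *Meg3* in both fractions.

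*Mirg*, the host of the microRNA array, was scarce outside mouse 4. It was at 1.32, 0.791 and 0.916 CPM in the labelled NNAT-positive cells of mice 1 to 3, from 47, 33 and 35 counts, and at 25.2 CPM in mouse 4, from 1104 counts. In labelled NNAT-negative cells it was at 0.546, 0.365 and 1.61 CPM in mice 1 to 3 and at 23.1 CPM in mouse 4. Non-beta cells had 1.14, 0.159 and 0.430 CPM. The mouse 4 level was 27.5 and 42.2 times the median of the other mice, but the lower fold of the labelled NNAT-positive fraction and the higher one of the labelled NNAT-negative fraction rest on medians of 35 and 16 counts. The second became 23.4 without mouse 1, 21.4 without mouse 2 and 50.6 without mouse 3.

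**Figure D1:**
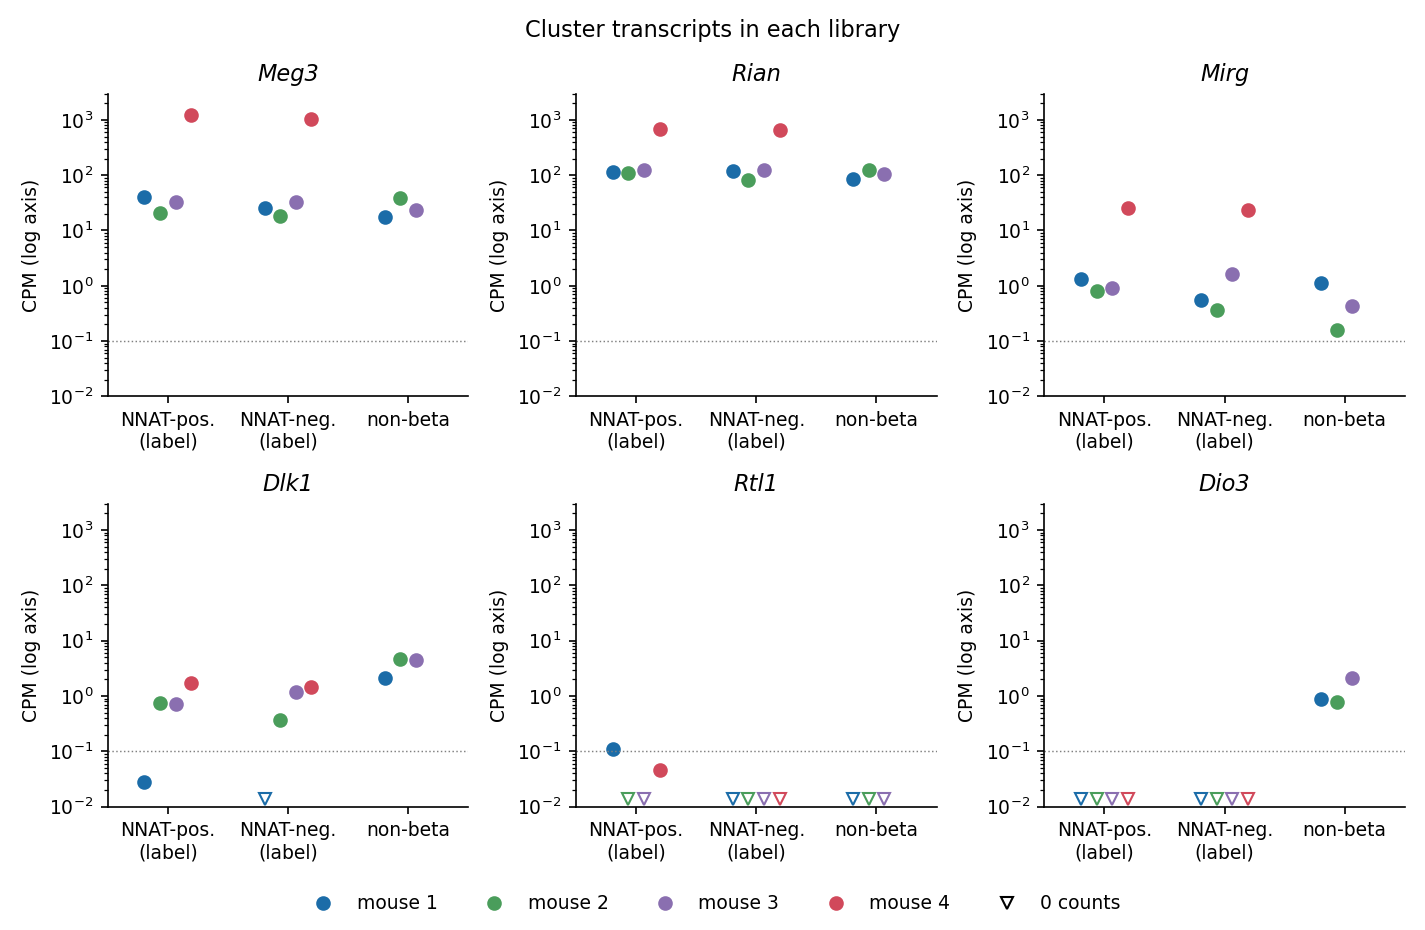
CPM (log axis) of the 6 cluster transcripts in each of the 11 libraries, by sorted fraction as labelled and coloured by mouse, with open triangles for libraries with 0 counts and a dotted line at the highest floor of 3 counts (0.102 CPM). Both mouse 4 points stand far above the others for *Meg3*, *Rian* and *Mirg*, and just above the highest other beta library for *Dlk1*, while *Dio3* was counted in non-beta cells only.

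The order of the noncoding RNAs was not the same in mouse 4. Levels between genes were compared as CPM per kilobase of annotated exon (18.1 kb for *Meg3*, 18.2 kb for *Rian* and 7.29 kb for *Mirg*). In the 9 libraries of mice 1 to 3, *Rian* was the most abundant member per kilobase and *Meg3* the second, with *Rian* between 2.79 and 5.36 times *Meg3*. In the mouse 4 libraries the order was reversed, with *Meg3* at 66.8 and 58.2 CPM per kb and *Rian* at 38.1 and 36.7 CPM per kb. The ratio of *Meg3* to *Rian* was 1.75 and 1.59 there, against 0.187 to 0.358 in the others. The ratio of *Meg3* to *Mirg* per kilobase was 19.3 and 18.4 in mouse 4, inside the range of 6.11 to 98.2 of the other libraries. Hence the 3 RNAs were all high in mouse 4 but not by 1 common factor. Annotated exon length may differ from that of the isoforms present, which the counts do not resolve.

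**Figure D2:**
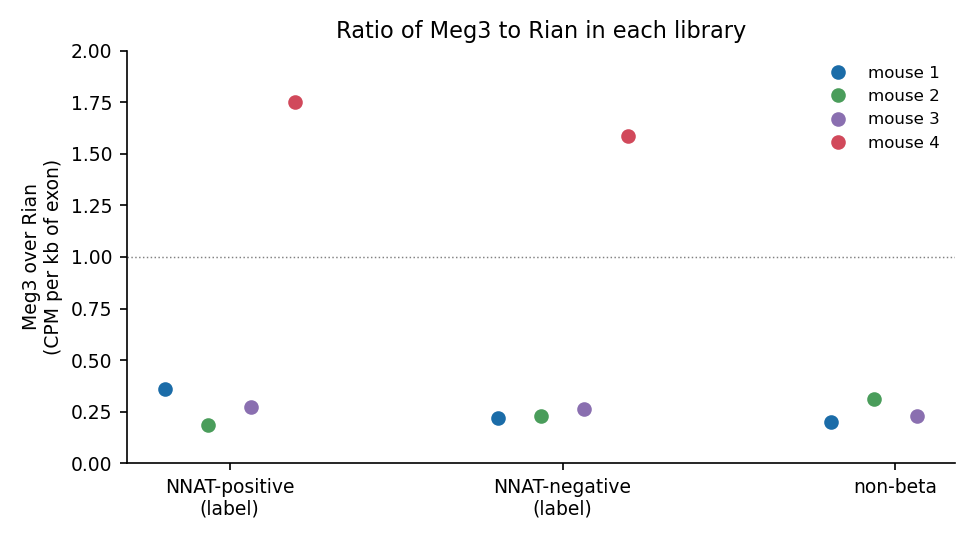
Ratio of *Meg3* to *Rian*, each as CPM per kilobase of annotated exon, in every library by labelled fraction and mouse, with a dotted line at 1. The 2 mouse 4 libraries are at 1.75 and 1.59 and the 9 others between 0.187 and 0.358.

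Of the protein-coding genes, *Dlk1* was also highest in mouse 4 but by a narrow margin, and *Rtl1* and *Dio3* had too few counts in beta cells to show whether they followed. *Dlk1* was at 0.0281, 0.744 and 0.733 CPM in the labelled NNAT-positive cells of mice 1 to 3, from 1, 31 and 28 counts, and at 1.73 CPM in mouse 4, from 76 counts. In labelled NNAT-negative cells it was at 0, 0.365 and 1.16 CPM, from 0, 12 and 42 counts, and at 1.45 CPM in mouse 4, from 53 counts. The mouse 4 libraries were thus the highest of the 8 beta libraries, but the lower of them exceeded the highest other library by only 0.30 on the log2 scale. Measured instead from the mean of the 6 other libraries, which were far apart, the mean log2 difference was 2.298 for *Dlk1* and 2.616 for *Rian*. Both mouse 4 libraries lay above all 6 others by some amount in 18.7% of the 17424 tested genes. The ratio to the median of the other mice was 2.37 in the labelled NNAT-positive and 3.96 in the labelled NNAT-negative fraction. The first became 4.56 without mouse 2 and 4.497 without mouse 3, and the second 1.89 without mouse 1, 2.49 without mouse 2 and 7.93 without mouse 3. *Rtl1* had 4 counts in the labelled NNAT-positive cells of mouse 1, 2 counts in those of mouse 4 and 0 in the 9 other libraries. *Dio3* had 0 counts in all 8 beta libraries, mouse 4 included, where the floor allowed up to 0.0685 and 0.0820 CPM.

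Against the whole table, the gap of the noncoding RNAs was large but not singular. The gap was defined as the lower of the mouse 4 log2 CPM values minus the highest of the 6 other beta libraries, with a prior count of 2. It was 4.70 for *Meg3*, 3.80 for *Mirg* and 2.42 for *Rian*, which ranked ninth, 29th and 176th of the 17424 tested genes. A gap of more than 1, a 2-fold difference, was found for 661 genes, or 3.79% of those tested, and the reverse gap for 22 genes, or 0.126%. Among tested long noncoding genes 235 of 1894 (12.4%) had such a gap, and among protein-coding genes 397 of 14639 (2.71%). The rule that chose the 3 RNAs used this contrast, so their place in the distribution is a description. *Col11a2*, *Rgs11* and *Firre* had larger gaps than *Meg3*, at 6.13, 5.42 and 5.30.

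**Figure D3:**
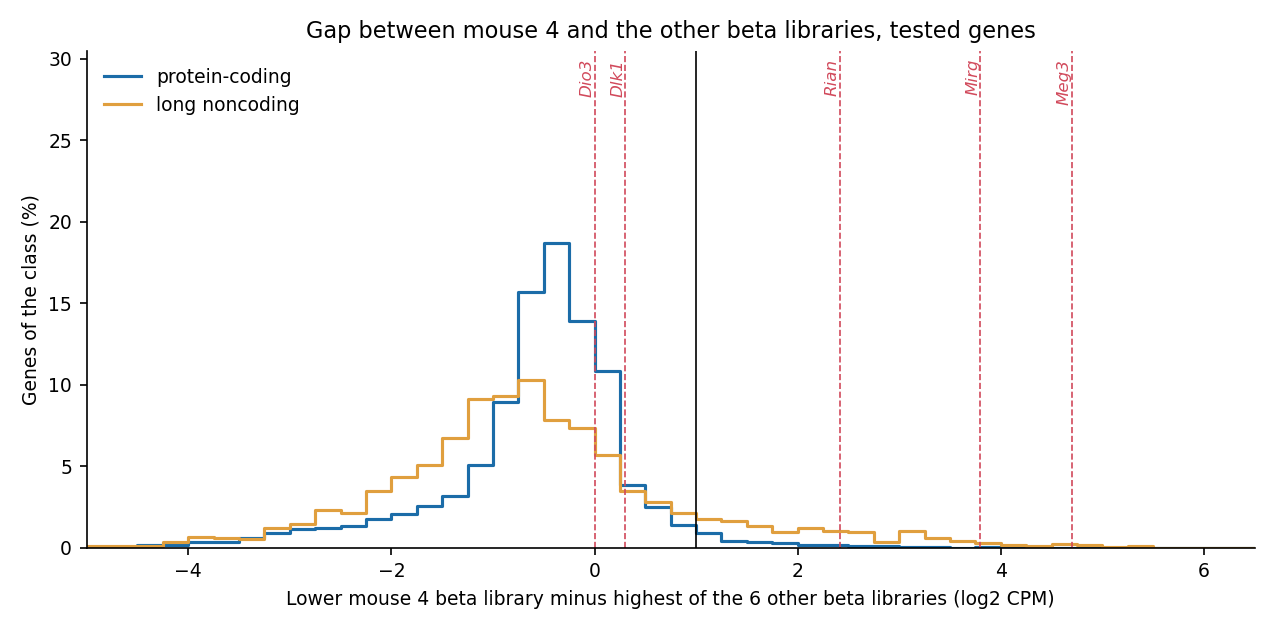
Share of tested protein-coding and long noncoding genes (y axis, %) by the gap between mouse 4 and the other beta libraries (x axis, log2 CPM), with a solid line at the 2-fold gap and dashed lines at the 5 tested cluster genes. *Meg3*, *Mirg* and *Rian* lie far in the right tail at 4.70, 3.80 and 2.42, and *Dlk1* near 0, at 0.30. *Dio3* is at 0 because it had no counts in beta cells.

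Most other annotated genes between *Dlk1* and *Dio3* had no counts. Of 110 further genes of the interval in the table, 29 had a count in some library and 3 passed the filter. The 67 microRNA genes had 77 and 40 counts in the labelled NNAT-positive and NNAT-negative cells of mouse 4, against 0 to 13 in the other beta libraries and 0 or 1 in non-beta cells. Among the 20 microRNA genes with any count, 14 were counted only in mouse 4, most of them from few counts. *Mir154* and *Mir1197* went the other way, with 7 and 6 counts in beta cells of mice 1 to 3 and none in mouse 4. The share of all genes counted only in mouse 4 was not computed, so the 14 are a description. Genes with at least 10 counts numbered 15776 and 15215 in mouse 4, against 13909 to 14859 in the other beta libraries. Poly(A) libraries do not capture mature microRNAs, so the counts of microRNA genes are not levels of the mature forms. The snoRNA gene *Gm24564*, which lies within the span of *Rian*, had 37 and 30 counts in mouse 4 and 0 in the 9 other libraries.

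Mature sequences of the microRNA genes with the most counts are given to show which small RNAs these precursors encode (RefSeq, GRCm38.p6, chromosome 12, plus strand), with the seed, bases 2 to 8, in capitals. *Mir341* (chr12:109611500-109611595) and *Mir1188* (chr12:109611822-109611941) lie within *Rian* outside its annotated exons, *Mir434* (chr12:109594506-109594599) lies opposite *Rtl1*, and *Mir453* (chr12:109735619-109735700) lies within *Mirg*.
mmu-miR-341-5p: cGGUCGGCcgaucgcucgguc
mmu-miR-341-3p: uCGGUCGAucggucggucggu
mmu-miR-1188-5p: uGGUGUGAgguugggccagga
mmu-miR-1188-3p: uCCGAGGCuccccaccacacccugc
mmu-miR-434-5p: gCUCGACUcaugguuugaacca
mmu-miR-434-3p: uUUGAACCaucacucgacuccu
mmu-miR-453: aGGUUGCCucauagugagcuugca
*Mir341* had 26 and 5 counts in the labelled NNAT-positive and NNAT-negative cells of mouse 4, *Mir1188* 21 and 5 and *Mir453* 4 and 7, and none of these was counted in another library. *Mir434* had 4 counts in each mouse 4 library and up to 5 in another beta library. The 4 genes encode distinct seeds, and among the 114 mature microRNAs of the interval only 10 of 104 seeds occurred more than once. The seed of miR-453 was shared with miR-496a-5p, whose precursor had 1 count, in mouse 4.

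The longer neighbours differed among themselves. *B830012L14Rik*, a noncoding gene between *Rian* and *Mirg* on the same strand (chr12:109695586-109702587), had 79 and 52 counts in mouse 4, 0 to 15 in the other beta libraries and 0 in non-beta cells. *Gm37899*, also between *Rian* and *Mirg*, had 40 and 15 counts in mouse 4, 0 in the other beta libraries and up to 7 in non-beta cells. *Gm34081*, on the opposite strand between *Dlk1* and *Meg3*, had 18 and 10 counts in mouse 4 and 0 elsewhere. The pseudogene *Gm3379*, between *Mirg* and *Dio3*, had 2 and 8 counts in mouse 4 and 3 to 14 in the other beta libraries, within their range or below it. *Dio3os*, which is transcribed away from *Dio3*, had 0 counts in all 8 beta libraries.

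Outside the cluster, the nearest tested protein-coding genes showed no such gap. Of 5 genes on each side, 0 lay more than 2-fold above the other beta libraries in mouse 4. By a smaller amount 3 lay above all of them and 2 below. Over all tested genes 18.7% lay above and 15.8% below by any amount, and 2.71% of protein-coding genes had the 2-fold gap. For 5 genes on each side, a count of 0 is near that share. *Hsp90aa1*, a cytosolic chaperone after *Dio3*, was at 437 and 470 CPM in mouse 4 and at 234 to 396 CPM in the others. *Wars*, a tRNA synthetase gene before *Dlk1*, was at 85.3 and 81.6 CPM in mouse 4 and at 86.2 to 122 CPM in the others. *Slc25a47*, a mitochondrial carrier gene with few counts, was at 1.16 and 1.17 CPM against 0 to 0.590 CPM. *Begain*, before *Dlk1*, was near the floor in beta cells, at 0.0913 and 0 CPM in mouse 4 and at most 0.0480 CPM in the others.

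**Figure D4:**
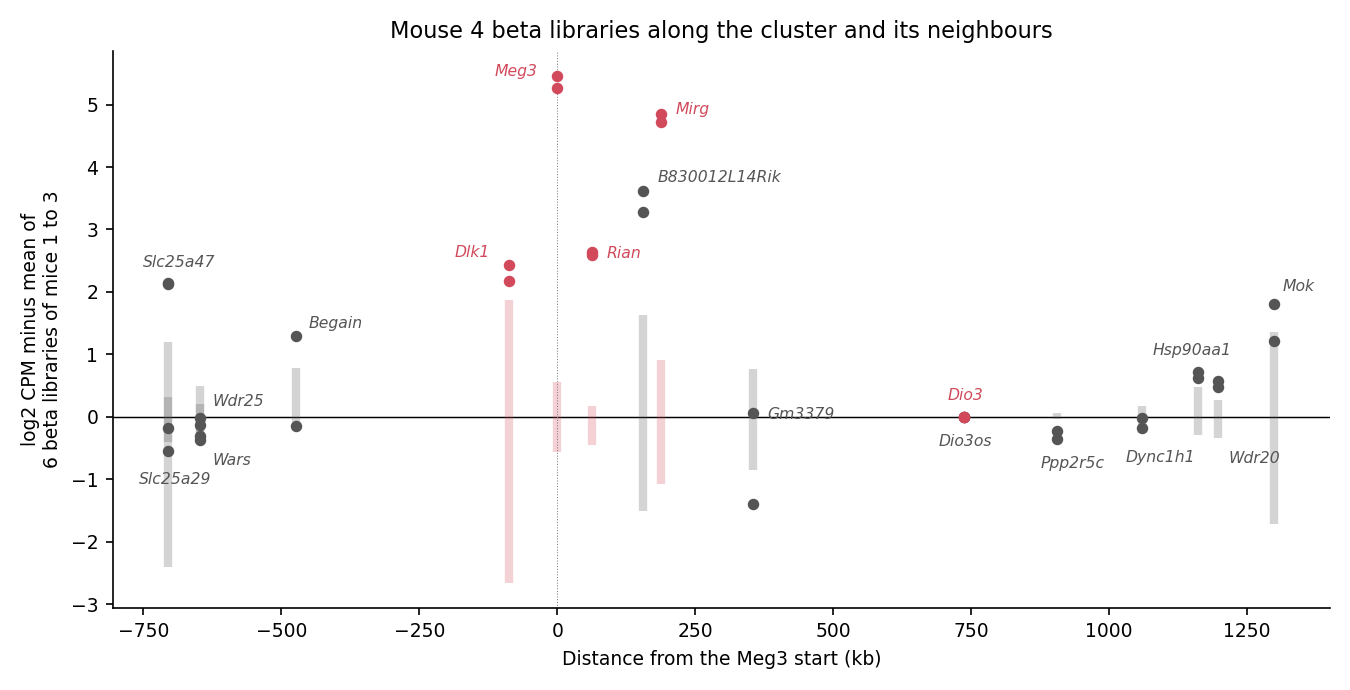
Tested genes of the interval and the 5 nearest tested protein-coding genes on each side, by distance of their start from that of *Meg3* (x axis, kb), with log2 CPM relative to the mean of the 6 beta libraries of mice 1 to 3 (y axis). Points are the 2 mouse 4 libraries, bars span the 6 others, and cluster genes are in red. Both points of *Meg3*, *Rian*, *B830012L14Rik* and *Mirg* stand well above their bars, those of *Dlk1* just above, and *Dio3* and *Dio3os* are at 0 with no counts.

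RNAs from other chromosomes had a similar profile across the 8 beta libraries. Likeness to *Meg3* was measured as the root mean square difference of log2 CPM, each gene being centred on its own mean. Of the 10 nearest genes, *Mirg* was the only one of the cluster, at rank 9 with a difference of 0.45. *Rian* ranked 235th with 1.21 and *Dlk1* 2678th with 2.08, of 17423 genes. The others included *Malat1*, a nuclear long noncoding RNA, at 1984 and 1592 CPM in mouse 4 and 37.3 to 87.9 CPM in the other beta libraries. *Rgs11*, a regulator of G protein signalling, was at 138 and 119 CPM against 1.07 to 2.71 CPM. *Ager*, *A230057D06Rik*, *Gm38057*, *Gm20394*, *Gm42979*, *Gm43511* and *Gm43890* completed the list, and all of these but *A230057D06Rik*, which reached 77.2 CPM, were at most 3.63 CPM in mouse 4. In the other beta libraries *Gm38057*, *Gm20394* and *Gm43511* were at 0 CPM, and *Ager*, *Gm42979* and *Gm43890* at most 0.0843 CPM. Their likeness to *Meg3* there rests on the prior count. When likeness was taken over all 11 libraries, 3 of the 10 genes were the same.

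Other nuclear RNAs, imprinted genes and regulators of imprints were examined as lists. The lists were drawn up with earlier results of these data known, so the counts from them are descriptions. Of 13 tested nuclear long RNAs, 8 lay more than 2-fold above in mouse 4 and 0 below, beside 12.4% of long noncoding genes. They were *Malat1*, *Neat1*, *Snhg11*, *Kcnq1ot1*, *Firre*, *Ftx*, *Snhg1* and *Snhg14*. *Neat1*, the scaffold of paraspeckles, was at 389 and 330 CPM against 15.2 to 20.6 CPM, and *Firre* at 188 and 177 CPM against 1.61 to 4.46 CPM. *Tug1* was at 95.3 and 99.9 CPM against 91.4 to 118 CPM, so that not all such RNAs were raised. Long noncoding genes took 1.26% and 1.18% of counts in mouse 4 and 0.433% to 0.502% in the other beta libraries, and without the 3 cluster RNAs still 1.04% and 0.986%, against 0.425% to 0.489%. Their part, and that of the lower beta cell marker sum, in the levels of *Meg3*, *Rian* and *Mirg* was not tested.

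Of 41 tested imprinted genes outside the cluster, 3 lay more than 2-fold above in mouse 4 and 0 below, beside 3.79% of all tested genes. *Kcnq1ot1*, the noncoding RNA of the *Kcnq1* domain, was at 40.5 and 35.5 CPM against 2.74 to 5.84 CPM. *Mcts2* was at 8.40 and 8.06 CPM against 0.751 to 2.47 CPM, and *Kcnk9* at 3.70 and 6.39 CPM against 0.240 to 0.527 CPM. *H19*, another maternally expressed noncoding RNA, had 0 CPM in every beta library. Of 23 regulators of imprints and DNA methylation, 2 lay above and 0 below. *Tet2*, which oxidises methylcytosine, was at 74.8 and 59.1 CPM against 8.25 to 16.9 CPM. *Zfp57*, which protects imprints from demethylation, was at 0.228 and 0.164 CPM against 0 to 0.0555 CPM, a difference of a few counts. *Dnmt3a*, *Zfp445* and *Dnmt1* lay above all other beta libraries in mouse 4, but by less than 2-fold. *Dnmt3a* was at 185 and 176 CPM against 107 to 126 CPM, and *Zfp445* at 129 and 137 CPM against 71.8 to 91.2 CPM. *Dnmt1* was at 38.0 and 36.3 CPM against 29.1 to 32.5 CPM. *Trim28* lay slightly below, at 104 and 101 CPM against 109 to 131 CPM.

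The comparison of the beta fractions asked whether the cluster differs with the label. *Dio3*, with no counts in either fraction, could not be compared. None of the 4 other tested cluster genes was called between labelled NNAT-positive and labelled NNAT-negative cells, beside 8 genes, 0.0459% of those tested, that were called higher and 0 lower by edgeR at an adjusted *p* below 0.01 and more than 2-fold. The number of genes with an unadjusted *p* below 0.05 was 969, and DESeq2 called 80 higher and 6 lower. *Meg3* was higher under the positive label in 4 of 4 mice, by 0.64, 0.15, 0.02 and 0.20 on the log2 scale (log2 fold change 0.27, SE 0.28, adjusted *p* = 0.950). *Rian* was higher in 2 of 4 mice (0.09, SE 0.15, adjusted *p* = 0.977). *Mirg* (0.29, SE 0.46, adjusted *p* = 0.975) and *Dlk1* (0.19, SE 0.78, adjusted *p* = 1) were each higher in 3 of 4 mice. The 2 fractions of mouse 4 differed by 0.20, 0.05 and 0.13 on the log2 scale for the 3 noncoding RNAs. That they lay closer to each other than to any other animal follows from how the cluster was chosen.

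Of the protein-coding genes, *Dlk1* and *Dio3* had higher levels in non-beta cells, whereas *Rtl1* had 0 counts there. In non-beta cells *Dlk1* was at 2.13 CPM in mouse 1, 4.69 CPM in mouse 2 and 4.49 CPM in mouse 3, above all 8 beta libraries, of which the highest had 1.73 CPM. The mean was 3.77 ± 1.42 CPM (SD, n = 3) in non-beta cells, 0.810 ± 0.702 CPM (SD, n = 4) in labelled NNAT-positive cells and 0.745 ± 0.676 CPM (SD, n = 4) in labelled NNAT-negative cells. *Dlk1* was lower in beta cells within each of the 3 mice, and by edgeR the log2 fold change was -3.64 (SE 0.91, adjusted *p* = 0.00789) for the labelled NNAT-positive and -3.83 (SE 0.93, adjusted *p* = 0.00629) for the labelled NNAT-negative fraction. In the same comparisons 15.5% and 17.1% of the tested genes were called lower and 6.13% and 6.18% higher. The call was lost, at an adjusted *p* between 0.0104 and 0.0266, when any one mouse was left out. Without the mouse as a block, the log2 fold changes were -2.21 and -2.33 (adjusted *p* = 0.153 and 0.131). Mouse 1, with 1 and 0 counts in its beta libraries, set the size of the blocked estimate, which was -2.60 and -2.73 without it.

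*Dio3* was counted in non-beta cells only, at 0.884, 0.768 and 2.12 CPM in mice 1 to 3, from 41, 29 and 79 counts. With all 8 beta libraries at 0, its mean of 1.26 ± 0.751 CPM (SD, n = 3) was at least 14.9-fold higher than the highest floor of 3 counts per library in the labelled NNAT-positive and at least 12.3-fold higher than that in the labelled NNAT-negative fraction. Since it passed the filter only through the fraction where it is high, no test is given. *Dio3os* behaved alike, at 1.38, 1.30 and 0.726 CPM in non-beta cells and 0 in all beta libraries. For *Dlk1* and *Dio3* the levels were thus highest in non-beta cells, and the beta fractions overlapped for *Dlk1* and were both at 0 for *Dio3*.

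**Figure D5:**
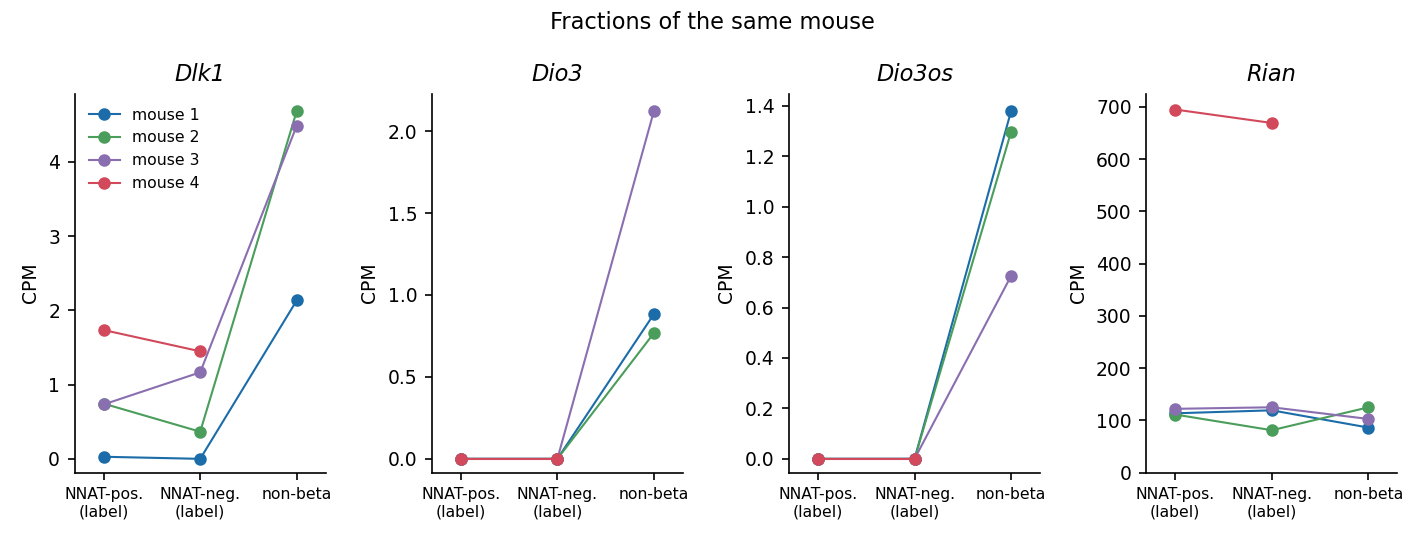
CPM (y axis) of *Dlk1*, *Dio3*, *Dio3os* and *Rian* in the sorted fractions as labelled (x axis), with a line for each mouse. Non-beta cells are the highest fraction for the first 3 genes in each of mice 1 to 3, whereas *Rian* separates mouse 4, which has no non-beta library, from the other animals.

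*Meg3*, *Rian* and *Mirg* were not called between beta and non-beta cells with the mouse as a block. The blocked log2 fold changes were 0.21 and -0.06 for *Meg3*, 0.13 and 0.05 for *Rian* and 0.96 and 0.67 for *Mirg*, for the labelled NNAT-positive and NNAT-negative fractions in turn, and the lowest edgeR adjusted *p* was 0.176. Without the block they were 3.62 and 3.42, 1.31 and 1.25, and 3.59 and 3.45, with adjusted *p* between 0.129 and 0.263, since mouse 4 then entered the beta groups alone. Without mouse 2 the blocked change of *Meg3* in labelled NNAT-positive cells was 0.82 (adjusted *p* = 0.00570), and without mouse 1 it was -0.25. For *Mirg* the changes were 1.70 and 1.63 without mouse 1 (adjusted *p* = 0.0275 and 0.0307), 0.50 and 0.45 without mouse 2, and 0.76 and 0.0077 without mouse 3. Whether the non-beta cells of mouse 4 also had high levels cannot be told from these libraries. In mice 1 to 3 the means of *Meg3* were 31.3 ± 10.0 CPM in labelled NNAT-positive cells, 25.6 ± 6.91 CPM in labelled NNAT-negative cells and 26.5 ± 11.0 CPM in non-beta cells (SD, n = 3 each), an order that lies within the spread. For *Rian* they were 116 ± 5.74, 109 ± 23.8 and 105 ± 19.4 CPM.

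The non-beta fraction was a mixture, and fewer cells of a type cannot be told apart from less RNA per cell. Summed markers there were 120075 to 168171 CPM for alpha cells, 14196 to 55141 CPM for acinar cells, 2165 to 2508 CPM for endothelial cells and 3254 to 7859 CPM for stromal cells. In beta libraries they were at most 4100, 1948, 8.79 and 4.69 CPM. Which of these cells carried *Dlk1* and *Dio3* was not tested.

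The partners of the protein-coding genes were described from lists of the pathways. Of 20 tested *Dlk1* and Notch genes, 11, *Dlk1* itself included, were lower and 1 higher in beta cells of either label than in non-beta cells. Of all tested genes 15.5% and 17.1% were lower and 6.13% and 6.18% higher for the positive and negative labels. The list had a median log2 fold change of -1.59 against -0.06 and -0.13 over all tested genes. *Notch3*, a receptor of vascular mural cells, was at 144 ± 39.4 CPM (SD, n = 3) in non-beta cells and at most 0.131 CPM in beta cells. *Hey1*, a Notch target, was at 7.66 ± 0.842 CPM against at most 1.10 CPM, and *Egfl7*, of endothelial cells, at 25.4 ± 3.04 CPM against at most 1.15 CPM. *Notch3* passed the filter through non-beta cells alone, where it is high. *Hey1* also needed the non-beta cells to pass, with means of 0.0699 and 0.450 CPM in labelled NNAT-positive and NNAT-negative cells. The part of both genes in the count and median is therefore a description. *Jag2* was the ligand higher in beta cells, by 1.68 and 1.76 on the log2 scale (SE 0.10 for each, edgeR adjusted *p* = 6.69e-07 and 4.48e-07), although it was at 45.0 and 48.0 CPM in mouse 4 and 94.5 to 107 CPM in the other beta libraries.

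Of 20 tested thyroid hormone genes, 2 were higher and 5 lower in beta cells under each label. These counts are to be read against the shares of all tested genes given above. *Dio2* was among the 5 for the positive label only, and *Crym* for the negative label only. *Dio2*, *Dio3* and *Rxrg* passed the filter through non-beta cells alone, so their part in the counts and medians of the list is a description. The median log2 fold changes were -0.26 and -0.37 for the 2 labels, against -0.06 and -0.13 over all tested genes. *Dio1*, the deiodinase that can activate the hormone, was at 69.0 to 143 CPM in beta libraries and 28.0 ± 14.2 CPM in non-beta cells, and *Sepsecs*, needed to make selenoproteins, at 114 to 206 CPM against 39.4 ± 5.45 CPM. *Ttr*, a hormone carrier also made by alpha cells, was lower by 2.91 and 2.99 on the log2 scale. Among 9 tested genes derived from Ty3/gypsy elements, the family of *Rtl1*, *Rtl5* was higher and *Peg10* lower in both comparisons, 1 gene in each direction beside the same shares of all genes, and the medians of -0.06 and -0.16 were close to those of all genes. *Rtl3*, at 0 CPM in every beta library, entered the last medians through non-beta cells alone. None of the genes of these 3 lists was called between the beta fractions.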

How the data were processed

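The authors sorted islet cells by FACS, prepared stranded poly(A) libraries, aligned paired reads to mm10 with STAR 2.7.1a and deposited raw STAR gene counts (GENCODE) without normalisation. Their processing notes also name DESeq2 1.32.0. One table held 55401 genes in 11 libraries, with 0 columns left unassigned, and 202 rows without a symbol. Of 439 genes lying wholly inside exons of the opposite strand, whose reads counting without strand would leave ambiguous, 174 had counts, up to 819 in a library.

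Counts were tested in R 4.3.3 with edgeR 4.0.16 (quasi-likelihood, TMM, filterByExpr by fraction). The fit used all 11 libraries and a term for the mouse (the block). Replicates are single animals in the study's methods, and the deviations of same-numbered beta libraries correlated at 0.182 to 0.658. *P* values were Benjamini-Hochberg adjusted over 17424 genes, and calls needed both an adjusted value below 0.01 and more than 2-fold difference. SEs were the log2 fold change over the square root of *F*. The test was checked on simulated data. Alternatives used DESeq2 1.42.0, RLE, no filter, no block, library sizes without *Ins1* and *Ins2*, beta libraries alone, plain totals and leaving out each mouse. Annotation was GENCODE release M21 (GRCm38), matched by 55141 gene identifiers, and sequences were from RefSeq. Named were the 6 cluster genes, the 10 other interval genes with the highest counts, the 5 nearest tested protein-coding genes on each side, the 10 genes most like *Meg3*, and examples from fixed lists. Extra names (*Mir154*, *Mir1197*, *Col11a2*, *Firre*, *Tug1*, *Dnmt3a*, *H19*) were picked after their values were seen. The members and lists were chosen with earlier results of these data known.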

Additional observations from a re-analysis of the deposited data

Results flagged for a closer look

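A sample far from the others was looked for with Dixon's ratio, the gap of the extreme library to its nearest neighbour over the whole range, in each beta fraction of 4 mice. *Meg3*, *Rian*, *Mirg* and the genes most like *Meg3* were chosen for this pattern, so their ratios are a description and no test, and a ratio of 1 follows wherever the other 3 libraries had no counts. Chance alone would mark about 1 in 20 groups that were not so chosen, if the 4 libraries differed by random spread only. That rate cannot be relied on here. Both mouse 4 libraries lay above all 6 other beta libraries in 18.7% of tested genes and below them in 15.8%. The share of all tested genes with such a ratio was not computed, so every ratio given here is a description. In the labelled NNAT-positive and labelled NNAT-negative fractions in turn, the ratio was 0.983 and 0.987 for *Meg3*, 0.981 and 0.925 for *Rian*, and 0.978 and 0.945 for *Mirg*. *Dlk1* was below the critical value in both fractions. For *Nnat* the ratio was 0.919 and 0.835. Within the interval *Gm24564*, *Gm37899*, *Mir341*, *Gm34081*, *Mir1188* and *Mir453* had a ratio of 1 in both fractions and *Mir434* a ratio of 1 in the labelled NNAT-positive fraction, all from few counts.

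Among the genes most like *Meg3*, the ratios were 0.974 and 0.978 for *Malat1*, 0.996 and 0.989 for *Rgs11*, 0.966 and 0.96 for *A230057D06Rik*, 0.983 and 1 for *Ager*, 1 and 0.992 for *Gm42979*, 0.954 and 1 for *Gm43890*, and 1 in both fractions for *Gm38057*, *Gm20394* and *Gm43511*. Of the flanking genes, *Slc25a47* (0.839) and *Hsp90aa1* (0.842) were highest in the labelled NNAT-positive library of mouse 4, *Ppp2r5c* (0.944) was lowest there, and *Wdr25* (0.853) was highest in the labelled NNAT-negative library of mouse 2.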

How the results depend on the processing

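Of 201 values recomputed under an alternative, *Dio3* left out, 165 stayed the same, meaning that a tested change kept its direction and side of the threshold, a fold moved by less than 1 SD of the ratios to the single mice, and a count stayed within 1.5 times. That SD is wide: the fold of *Mirg* in mouse 4 fell within it although it ranged from 21.4 to 50.6 in labelled NNAT-negative cells as one of mice 1 to 3 was left out. For *Dlk1* in labelled NNAT-positive cells the range was 2.35 to 4.56. The fold of *Rian* in labelled NNAT-positive cells became 7.19 on plain total counts, and that of *Dlk1* in labelled NNAT-negative cells ranged from 1.89 to 7.93 as one of mice 1 to 3 was left out. Genes with a gap above 2-fold in mouse 4 numbered 1377 without the filter on low counts, where more genes are examined. Those below numbered 12 on plain totals and 55 to 76 without one of mice 1 to 3. Between the beta fractions the called genes numbered 86 by DESeq2, 26 without the filter, 1 without the mouse block and 0 to 5 without one mouse (5, 3, 0 and 3 without mice 1, 2, 3 and 4). With all 11 libraries, 3 genes were shared with the 10 most like *Meg3* in beta cells. Directions reversed only for changes that did not pass the threshold in the reported fit. For *Rian*, labelled NNAT-negative against non-beta, the log2 fold change was -0.01163 by DESeq2, -0.01162 with RLE and -0.14 to 0.33 without one mouse (negative without mouse 1 or 3). For *Meg3* in the same comparison it was 3.42 without the mouse block and -0.37 to 0.52 without one mouse (positive without mouse 2), and for the labelled NNAT-positive fraction -0.25 to 0.82 (negative without mouse 1, edgeR adjusted *p* = 0.0057 without mouse 2). Between the beta fractions, leaving out one mouse gave -0.01822 to 0.15 for *Rian* and -0.16 to 0.73 for *Dlk1*, negative without mouse 2 in both. The causes were not tested. Depth limits *Rtl1*, *Dio3* in beta cells and the microRNA genes, which rest on few counts or none.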
